A study of Homo sapiens with 40 samples.

Results

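CAMK2N1, ACKR3, CCN3 and MET are 4 human genes that androgen is known to repress in prostate cancer cells. They are described here in LNCaP, a line of human prostate cancer whose growth responds to androgen, under the antiandrogen MDV3100, also called enzalutamide. Each gene was read from the probe sets that the platform annotation pairs with it alone, and the brightest of these stood for the gene. All 4 were among the 19775 genes named in this way. Of the 4, CAMK2N1 and ACKR3 passed the filter on low signals, a mean signal of about 12.1, as did 11853 genes in all. CCN3 and MET did not pass it on any of their probe sets.

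The study set 7 LNCaP clones labelled insensitive to MDV3100 against 3 LNCaP control lines labelled sensitive to it. The clones carry the numbers 1, 9, 10, 14, 15, 19 and 24. The control lines, whose titles D+E-, D+R- and M+R- the labels do not explain, are called control 1, control 2 and control 3. All lines grew in RPMI-1640 medium with 10% fetal calf serum for 3 days and then received 10 µM MDV3100 or its solvent, 0.1% DMSO, for 24 h. For every line under either treatment there are 2 arrays, labelled replicate 1 and replicate 2. That gives 14 clone arrays in MDV3100 and 14 in DMSO, and 6 control arrays in MDV3100 and 6 in DMSO. Each clone is a single isolate, and how the clones were made resistant is not given in the sources used here. The labels do not say whether replicates were separate cultures, so the spread between the 2 replicates of a line may be technical. The response of control lines was fitted on single arrays, and its p-value covers such spread. Elsewhere the main fits used 1 mean per line, and their p-values cover the spread between the lines at hand and no more. In bulk RNA, fewer cells with a transcript and less of it per cell cannot be told apart.

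In prostate cells androgen raises the transcription of some genes, such as KLK2 and TMPRSS2, and lowers that of others. MDV3100 blocks androgen signalling, so androgen-repressed genes can be read as the opposite arm of its output. CAMK2N1 encodes a small inhibitor of calcium/calmodulin-dependent kinase II. ACKR3, also known as CXCR7, encodes an atypical chemokine receptor that binds and takes up the chemokine CXCL12. CCN3, also known as NOV, encodes a secreted matrix protein of the CCN family, and MET encodes the receptor tyrosine kinase for hepatocyte growth factor. CAMK2N1 lies on chromosome 1, ACKR3 on chromosome 2, MET on chromosome 7 and CCN3 on chromosome 8.

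The 2 replicate numbers behaved as separate sets of arrays. After centring each gene on its mean over all 40 arrays, the median r between the 2 replicates of a label was -0.41, while that between the 2 treatments of a line within a replicate number was 0.781. Genes are not independent replicates of such an r, and a large gap between sets makes it negative by itself. Averaged over treatments, the replicate 2 arrays labelled control 2 matched the replicate 1 arrays labelled clone 1 best (r = 0.748) and their own label at r = -0.33. The replicate 1 arrays labelled clone 1 had r = 0.0934 with their own label. In the same way clone 1 of replicate 2 matched clone 19 of replicate 1 (r = 0.744), and clone 15 of replicate 1 matched control 3 of replicate 2 (r = 0.633, own label -0.72). Each pair of a line and a replicate number is called a culture here. Only 1 of 20 cultures, control 1 of replicate 1, had its own label as its best match in the other set. Several best matches lay below 0 themselves, such as that of clone 10 of replicate 2 with control 2 (r = -0.33). A failed match with the own label thus does not by itself show that a culture goes against it. Labels may have been exchanged, and which are right is not known. Results are therefore given for the labelled groups as a whole and, in square brackets, for replicate 1 and replicate 2 arrays alone, and values without the first 2 cultures are given where they differ. Defining markers of luminal prostate cells summed to signals of 5123 to 13557 on clone arrays and 5698 to 11968 on control arrays over 6 of 8 listed markers. No listed basal or immune marker passed the filter, with 2 of 3 read in each list. Of 5 fibroblast markers 2 passed, and their list summed to 81.0 to 191.9 on clone arrays and 127.4 to 362.5 on control arrays. COL1A1, a collagen gene among them, was lower in clones in MDV3100 (-0.61, limma adjusted p = 0.0391), and 8.96% of all genes were called there. Of 3 endothelial markers only VWF passed, and their list summed to a median of 23.8 on clone arrays (15.5 to 46.2) and 59.2 on control arrays (14.3 to 133.2). The level of VWF in clones relative to control lines was -0.64 in MDV3100 (limma adjusted p = 0.123) [-1.31, 0.03] and -0.85 in DMSO (limma adjusted p = 0.0680) [-1.59, -0.10]. The part of such markers in the results was not tested.

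CAMK2N1 was among the bright transcripts, with a mean signal of 2471 over the 40 arrays. Signals are MAS5 values, linear brightness scaled to a common mean on every array. In clone arrays of replicate 1, its signal ran from 779.7 to 3708.8 with a median of 2899.1 in MDV3100, and from 572.7 to 3016.0 with a median of 2281.1 in DMSO. All 7 clones were higher in MDV3100 than in DMSO in this set, and all 3 control lines were too. Control 1 had a signal of 3157.2 in MDV3100 and 3014.0 in DMSO, control 2 had 3954.9 and 3819.1, and control 3 had 4241.2 and 3221.7. In control 1 and control 2 the treatments were close, and control 3 was clearly higher in MDV3100. The level of the control lines was above that of 5 of 7 clones in MDV3100 and of 6 of 7 in DMSO.

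In replicate 2 arrays the picture of CAMK2N1 was another one. Clone signals ran from 1201.8 to 2754.5 with a median of 2646.0 in MDV3100, and from 1614.2 to 2827.1 with a median of 2238.3 in DMSO. Only 3 of the 7 clones were higher in MDV3100, and clones 14 and 24 had 1201.8 and 1205.5 in MDV3100 against 1656.2 and 1614.2 in DMSO. All 3 control lines were far higher in MDV3100 than in DMSO. Control 1 had 4352.4 in MDV3100 and 2393.6 in DMSO, control 2 had 881.2 and 365.7, and control 3 had 3173.4 and 1395.2. The median ratio of the control pairs was 2.27. The 2 lowest cultures in the whole data were those labelled clone 1 in replicate 1 and control 2 in replicate 2, the same 2 whose profiles matched each other.

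**Figure D1:**
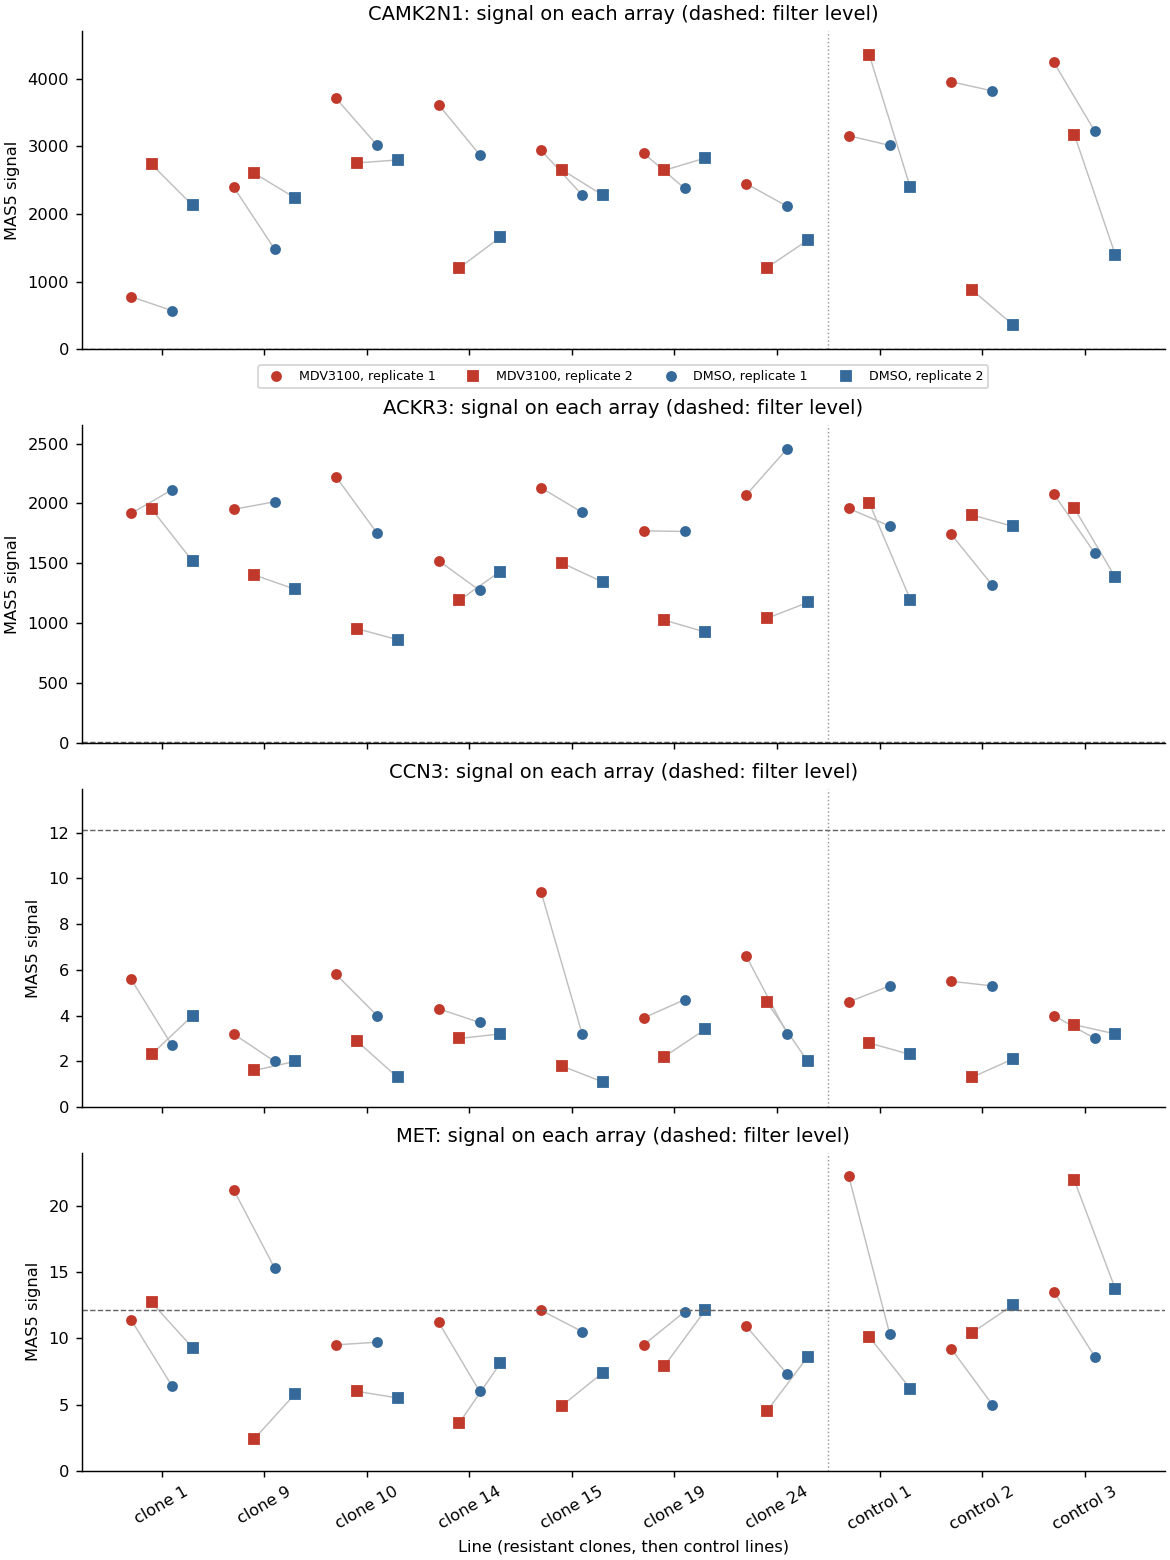
MAS5 signal (linear vertical axis) of the brightest probe set of each gene on each of the 40 arrays, by line, with clones left of control lines and MDV3100 left of DMSO; grey lines join the 2 treatments of a line and replicate number, and the dashed line is the filter at a signal of 12.1. CAMK2N1 is lowest in clone 1 of replicate 1 and control 2 of replicate 2, ACKR3 in MDV3100 is lower in clones than in control lines mainly among replicate 2 arrays, and all 40 CCN3 values and 30 of 40 MET values lie below the filter.

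On the log2(signal + 16) scale, the response of CAMK2N1 to MDV3100 averaged 0.17 ± 0.22 over the 7 clones and 0.63 ± 0.16 over the 3 control lines (SD over lines, each line the mean of its 2 replicates). The clones ran from -0.10 in clone 24 to 0.45 in clone 9, and the control lines from 0.46 to 0.79. The groups thus came close at their edges, and within replicate 1 they overlapped. Differences were tested with limma, and a gene was called at a Benjamini-Hochberg adjusted p under 0.05 over all genes tested. In clones the limma response was 0.17 ± 0.07 (SE, adjusted p = 0.264) [0.37, -0.03], and with limma within sets it passed the threshold in replicate 1 (adjusted p = 0.0236) but not in replicate 2 (0.949). In control lines the limma response was 0.63 ± 0.51 (SE, adjusted p = 0.887) [0.17, 1.09], and it passed in replicate 2 (adjusted p = 0.0191) but not in replicate 1 (0.680). The fit over all control arrays blocked on line and did not pair arrays by replicate number. Level differences between the sets thus entered its SE, and its p does not show that there was no response. Fits on pairs and on line means are given below. The set in which CAMK2N1 passed was thus not the same in clones and in control lines, the gap between sets was not itself tested, and all 3 control lines were higher in MDV3100 in replicate 1 too. Over all arrays, neither member passed limma's test in clones, fitted on line means, or in control lines, fitted on single arrays. The share of all 11853 tested genes called was 0.506% in clones and 0.101% in control lines. Within the sets where CAMK2N1 passed, the share of all genes called as higher was 0.726% in clones of replicate 1 and 0.0422% in control lines of replicate 2. At an unadjusted p under 0.05, 1 of 2 measured members passed in clones (CAMK2N1) and 1 of 2 in control lines (ACKR3), where 16.1% and 7.3% of all genes did.

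The difference between the responses of CAMK2N1, clones minus control lines, was -0.46 ± 0.13 (SE, limma adjusted p = 0.114) and changed sign between the sets [0.20, -1.12]. In replicate 2, all 7 clones lay below all 3 control lines, with clone responses of -0.46 to 0.36 (median -0.02) against 0.86, 1.23 and 1.18 for control 1, control 2 and control 3. The share of all genes that part the groups in this way is not given here. In replicate 1 the groups overlapped, with clone responses of 0.21 to 0.69 (median 0.33) and control responses of 0.07, 0.05 and 0.39, and 2 clones lay above every control line. Without the cultures labelled clone 1 in replicate 1 and control 2 in replicate 2, the difference was -0.27 (limma adjusted p = 0.372), and the response of control lines was 0.51 (limma adjusted p = 0.501). For ACKR3 these values were -0.33 (limma adjusted p = 0.166) and 0.43 (limma adjusted p = 0.252). Neither member passed the test of this difference over all arrays, where limma called 0.717% of all genes. Both members had an unadjusted p under 0.05, as did 14.7% of all genes. Fitted as the clones were, with 1 averaged difference per line, the response of control lines passed limma's test for CAMK2N1 (adjusted p = 0.00615) and ACKR3 (adjusted p = 0.0456). That fit called 718 genes, 6.06% of all. With each pair of arrays as a block, the limma adjusted p in control lines was 0.0759 for CAMK2N1 and 0.103 for ACKR3, and limma called 306 genes (2.58%) there in place of 12.

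**Figure D2:**
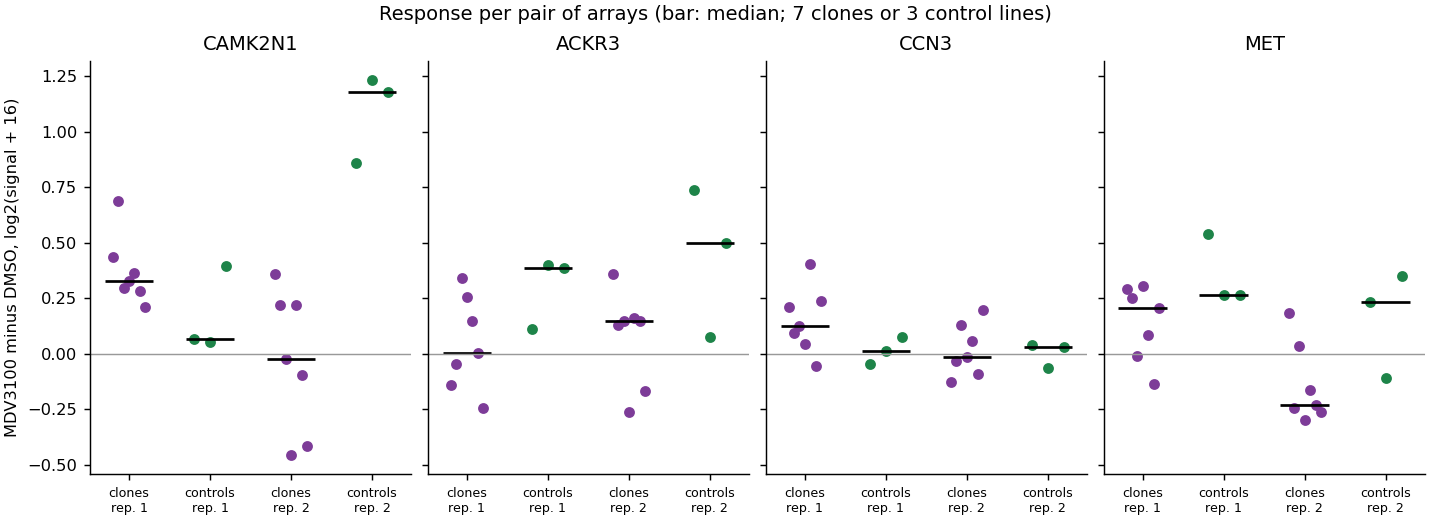
Response of each gene, MDV3100 minus DMSO on the log2(signal + 16) scale (vertical axis), for every pair of arrays of a line and replicate number, in 7 clones and 3 control lines; the bar is the median. For CAMK2N1 the groups overlap in replicate 1 and not in replicate 2 (clones -0.46 to 0.36, control lines 0.86 to 1.23); for ACKR3 all 6 control pairs lie above 0, and 9 of 14 clone pairs do.

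A second CAMK2N1 probe set had a mean signal of 377.6 and gave the same counts of higher and lower pairs. Its clone responses ran from 0.04 to 1.63 (median 0.85) in replicate 1 and from -0.95 to 0.83 (median -0.31) in replicate 2, with 7 of 7 and 3 of 7 clones higher in MDV3100. Control responses on this probe set were 0.60 to 0.92 in replicate 1 and 0.44 to 2.93 in replicate 2, so all 6 control pairs were higher in MDV3100. The highest of these came from control 3, with signals of 513.7 in MDV3100 and 53.3 in DMSO. On it the control lines of replicate 1 had responses above those of the brightest probe set, which were 0.05 to 0.39. The third was dim, with a mean signal of 26.79 and 12 of 28 clone arrays and 2 of 12 control arrays below the filter level. Its counts were others: 12 of 14 clone pairs were higher in MDV3100 (5 of 7 in replicate 2), and 4 of 6 control pairs. The difference of responses, clones minus control lines, was -0.18 on it, against -0.46 on the brightest and -0.76 on the second.

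**Figure D3:**
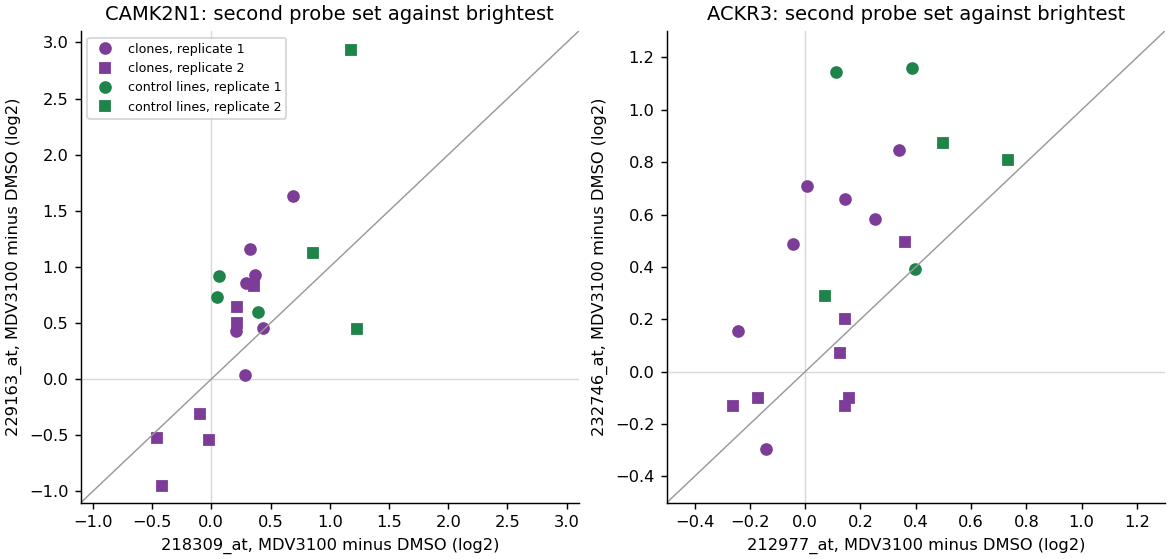
Response, MDV3100 minus DMSO in log2(signal + 16), on the second brightest probe set (vertical axis) against the brightest (horizontal axis) for CAMK2N1 and ACKR3, with 1 point per pair of arrays (14 clone and 6 control pairs) and a grey line at equal responses. Most points lie above the line of equal responses, and on both ACKR3 probe sets all 6 control pairs lie above 0.

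On its brightest probe set, no difference in the level of CAMK2N1 between clones and control lines passed the test over all arrays. In MDV3100 the clones were at -0.36 ± 0.26 relative to control lines (log2, SE, limma adjusted p = 0.395) [-0.61, -0.11]. In DMSO the value was 0.10 ± 0.28 (SE, limma adjusted p = 0.862) and of opposite sign in the sets [-0.82, 1.01]. The other 2 probe sets gave -1.07 and -0.85 in MDV3100 and -0.32 and -0.67 in DMSO, so in DMSO the direction turned with the probe set. The mean of the probe sets gave -0.76 in MDV3100 (limma adjusted p = 0.168) and -0.30 in DMSO (limma adjusted p = 0.573). Ordered by mean level, control 1 and control 3 were highest in MDV3100 and clone 1 was lowest. In DMSO, clone 10 was highest, and control 2 and clone 1 were lowest. In each order, 8 of 9 neighbouring lines had ranges of their 2 arrays that overlapped. Without the 2 cultures named above, which stand out by their low CAMK2N1 itself, the limma level in MDV3100 was -0.59 (adjusted p = 0.0468) and in DMSO -0.33 (adjusted p = 0.251). That fit called 9.24% of all genes. This alternative was chosen after seeing the data, and its p is no independent test of a level that helped to pick the cultures.

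ACKR3 was also bright, with a mean signal of 1632, and varied less between lines than CAMK2N1. In replicate 1, clone signals ran from 1522.7 to 2222.1 with a median of 1951.4 in MDV3100, and from 1275.2 to 2457.5 with a median of 1925.6 in DMSO. Control 1 had 1958.9 in MDV3100 and 1811.5 in DMSO, control 2 had 1742.2 and 1318.3, and control 3 had 2077.9 and 1585.2. All 3 control lines and 4 of 7 clones were higher in MDV3100, and the levels of the groups overlapped under both treatments. Among replicate 2 arrays, clones ran from 956.6 to 1955.1 with a median of 1191.7 in MDV3100, and from 863.6 to 1519.5 with a median of 1284.4 in DMSO. Control 1 had 2005.4 in MDV3100 and 1198.5 in DMSO, control 2 had 1904.6 and 1809.8, and control 3 had 1960.8 and 1383.3. In this set 6 of 7 clones in MDV3100 lay below all 3 control lines, and clone 1, at 1955.1, was the exception.

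The response of ACKR3 averaged 0.06 ± 0.14 over the 7 clones, from -0.21 in clone 24 to 0.24 in clone 10, and 0.37 ± 0.11 over the 3 control lines, from 0.24 to 0.44 (log2, SD over lines). The groups overlapped at their edge. The limma response was 0.06 ± 0.05 in clones (SE, adjusted p = 0.626) [0.04, 0.07] and 0.37 ± 0.13 in control lines (SE, adjusted p = 0.490) [0.30, 0.44]. The difference, clones minus control lines, was -0.31 ± 0.10 (SE, limma adjusted p = 0.155) [-0.25, -0.36]. Unlike that of CAMK2N1, it had the same sign in both sets, although it passed the test in neither. On the second ACKR3 probe set, with a mean signal of 121.3, control responses were 0.29 to 1.16 and higher in MDV3100 in 6 of 6 pairs, against 9 of 14 clone pairs. The clones differed by set on it. In replicate 1, 6 of 7 were higher in MDV3100 (median response 0.58), and in replicate 2, 3 of 7 were (median -0.10).

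Under MDV3100 the level of ACKR3 in clones was -0.31 ± 0.12 relative to control lines (log2, SE, limma adjusted p = 0.118). Within the sets it was 0.01 in replicate 1 (limma adjusted p = 0.983) and -0.63 in replicate 2 (limma adjusted p = 0.0497), so ACKR3 passed as lower in clones in replicate 2, and the difference between the sets was not tested. In that set 19.6% of all genes were called between clones and control lines, and 12.4% were called as lower. Over all arrays neither member passed, while limma called 8.96% of all genes, and 1 of 2 members (ACKR3) had an unadjusted p under 0.05, as did 27.6% of genes. Leaving out clone 1 gave -0.36 (limma adjusted p = 0.0330), in a fit that called 18.6% of all genes. In DMSO the level difference was -0.00 ± 0.12 (SE, limma adjusted p = 0.992) [0.26, -0.26], and neither member passed or had an unadjusted p under 0.05, with 0.118% of genes called and 24.3% at an unadjusted p under 0.05. Ordered by mean level, control 3 was highest and clone 14 lowest in MDV3100, and clone 1 was highest and clone 10 lowest in DMSO. The 2-array ranges of neighbouring lines overlapped in 7 of 9 cases in MDV3100 and 9 of 9 in DMSO. On the second ACKR3 probe set, the level of clones relative to control lines was -0.60 in MDV3100 and -0.07 in DMSO. In replicate 2, clone signals on it had medians of 39.9 in MDV3100 and 42.9 in DMSO, against 189.7 and 113.3 in control lines. Clone 1 was the highest clone of that set under both treatments, at 182.6 and 124.9. In replicate 1 the medians were 194.3 and 124.9 in clones, against 178.8 and 72.1 in control lines.

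MET and CCN3 were dim throughout. The brightest MET probe set had signals of 2.4 to 22.2, with 30 of 40 arrays below the filter level, and the other 3 MET probe sets had mean signals of 0.868 to 2.87. In clones the MET signal was higher in MDV3100 in 7 of 14 pairs, with responses of -0.13 to 0.31 in replicate 1 (5 of 7 higher) and -0.30 to 0.18 in replicate 2 (2 of 7 higher). In control lines it was higher in MDV3100 in 5 of 6 pairs. In replicate 1, control 1 had 22.2 in MDV3100 and 10.3 in DMSO, control 2 had 9.2 and 5.0, and control 3 had 13.5 and 8.6. The replicate 2 signals in MDV3100 and DMSO were 10.1 and 6.2 in control 1, 10.4 and 12.5 in control 2, and 21.9 and 13.7 in control 3. Control 2 of replicate 2 was the pair that went the other way. The next brightest MET probe set, below the filter level on all 40 arrays, turned the direction. On it 0 of 6 control pairs and 10 of 14 clone pairs were higher in MDV3100. Its difference of responses, clones minus control lines, was 0.33, and its level in MDV3100 was 0.19. The dimmer ones gave differences of -0.11 and -0.01 and levels of -0.03 and 0.01.

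Fitted without the filter on all 19775 genes, the MET response was 0.00 in clones (limma adjusted p = 0.998) and 0.26 ± 0.13 in control lines (SE, limma adjusted p = 0.824). The difference of responses was -0.26 ± 0.09 (SE, limma adjusted p = 0.314) [-0.21, -0.30], and the level of clones relative to control lines in MDV3100 was -0.28 ± 0.09 (SE, limma adjusted p = 0.0992) [-0.12, -0.45]. Limma called neither MET nor CCN3 in any of these comparisons, in which it called 0.101% of genes for the response of clones, 0.0506% for that of control lines, 0.131% for the difference, 4.25% for the level in MDV3100 and 0.0657% for the level in DMSO. The DMSO level of MET in clones was -0.03 relative to control lines (limma adjusted p = 0.885). MET had an unadjusted p under 0.05 for the difference of responses and for the level in MDV3100, and CCN3 in none. These differences lie close to the floor of the arrays, where the pseudocount of 16 shrinks them. With a pseudocount of 1 the MET response of control lines was 0.57, the difference -0.64 and the level in MDV3100 -0.70 (limma adjusted p = 0.881, 0.359 and 0.114).

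CCN3 gave signals of 1.1 to 9.4 on its brightest probe set and 0.3 to 9.3 on the other, and all 40 arrays were below the filter level on both. Its fitted response was 0.08 in clones and 0.01 in control lines (limma adjusted p = 0.413 and 0.998). At this signal a change of CCN3 was not detectable, which does not show that there was none.

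Of the 4 members, only MET has an entry in the RefSeq promoter table used here. The 250 bases before its start (chr7:116671946-116672195, plus strand, GRCh38.p14) are shown because androgen signalling acts through DNA motifs that can be looked for there. Capitals mark GGGCGG, the GC box.

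MET promoter: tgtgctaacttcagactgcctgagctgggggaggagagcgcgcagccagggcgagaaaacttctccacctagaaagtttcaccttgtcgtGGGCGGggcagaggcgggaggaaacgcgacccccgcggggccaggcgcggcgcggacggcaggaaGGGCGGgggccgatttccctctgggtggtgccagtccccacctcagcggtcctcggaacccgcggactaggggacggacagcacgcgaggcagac

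Searched on both strands, this window held 2 GGGCGG motifs, which 42.6% of 35116 promoter windows of the same length hold at least once. It held no AGAACA, the repeat unit of the androgen response element, which 12.4% of the windows hold. That says only that these letters are not in this window.

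Each pair of arrays can be set beside the mean response of 19 measured androgen-induced genes, out of 22 listed. In replicate 1 that mean was -0.86, -0.79 and -0.70 in clones 9, 10 and 14, -0.27 in clone 15, and -0.07, -0.04 and -0.09 in clones 1, 19 and 24. The 3 control lines had -0.75, -0.79 and -0.80. Clones 1, 19 and 24, whose androgen-induced mean lay nearest to 0, had CAMK2N1 responses of 0.43, 0.28 and 0.21 and ACKR3 responses of -0.14, 0.00 and -0.24. Clones 9, 10 and 14 had CAMK2N1 responses of 0.69, 0.30 and 0.33 and ACKR3 responses of -0.05, 0.34 and 0.25. In replicate 1, CAMK2N1 was thus higher in MDV3100 in all 7 clones, over androgen-induced means of -0.86 to -0.04.

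Among replicate 2 arrays, the 7 clones had an androgen-induced mean of -0.17 to 0.23, and control 1, control 2 and control 3 had -0.94, -0.13 and -0.67. Control 2 had the highest CAMK2N1 response of all 20 pairs, 1.23, with KLK2, an androgen-induced protease gene, at 0.09. The ACKR3 response of that pair was 0.07 and its MET response -0.11, both the lowest among the 6 control pairs. CAMK2N1 and ACKR3 were both higher in MDV3100 in 7 of 14 clone pairs and 6 of 6 control pairs. Of the other 7 clone pairs, both were lower in 2 and they moved opposite ways in 5.

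**Figure D4:**
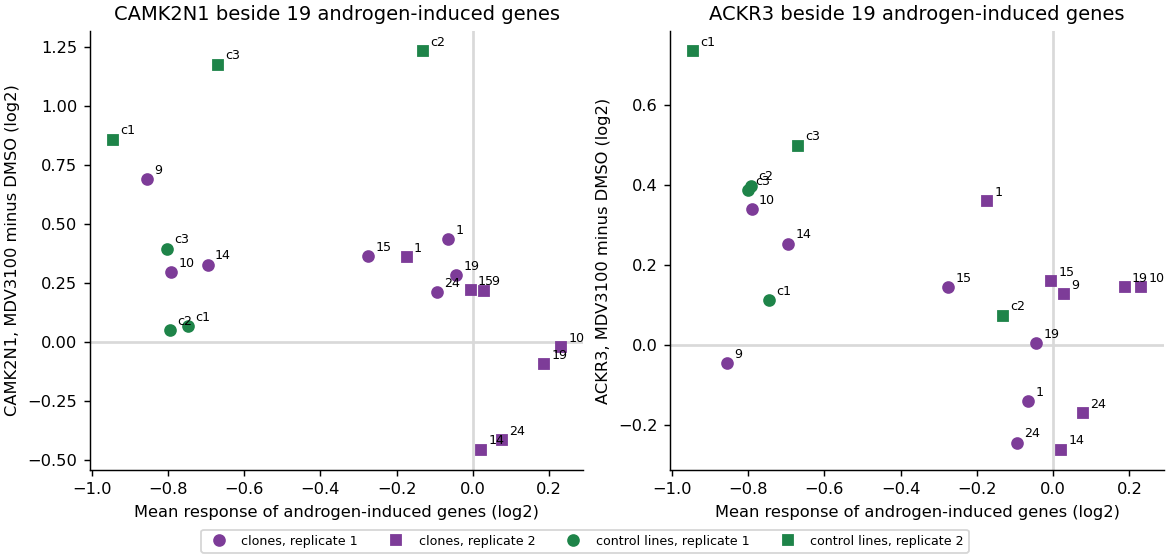
Response of CAMK2N1 (left) and ACKR3 (right), MDV3100 minus DMSO in log2(signal + 16), against the mean response of 19 androgen-induced genes in the same pair of arrays; numbers are clones, and c1 to c3 are control lines. Replicate 2 of control 2 stands at 1.23 for CAMK2N1 and 0.07 for ACKR3 with an androgen-induced mean of -0.13, and the points share arrays and cultures, so the plot is a description.

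Other genes that androgen represses were set beside the members, from a list chosen with earlier results of these data known. Of 11 listed, 10 were measured. The median of their responses was 0.02 in clones [0.09, -0.05] and 0.29 in control lines [0.24, 0.34], beside a median over all genes of 0.00 in clones and 0.01 in control lines. No member of this list passed limma's test for either response. At an unadjusted p under 0.05 there were 4 in clones and 2 in control lines, where 16.1% and 7.3% of all genes were. OPRK1, the kappa opioid receptor, had a response of 0.21 in clones [0.72, -0.30] and 1.79 in control lines [2.20, 1.37]. The difference of OPRK1 was -1.57 (limma adjusted p = 0.0215), the one call of this list, where 0.413% of all genes were called as lower. In the list, 9 of 10 members had a negative difference (median -0.38, beside -0.00245 over all genes). CLU, a secreted chaperone, had 0.17 in clones and 0.66 in control lines, and UGT2B15, an enzyme that inactivates androgens, had 0.17 and 0.55. AKR1C3, an enzyme that makes active androgens, had -0.03 in clones and 0.40 in control lines. In MDV3100, OPRK1 (-2.32, limma adjusted p = 0.00769) and BCL2, an inhibitor of cell death (-0.91, limma adjusted p = 0.0177), were lower in clones. These were 2 of 10, where 4.26% of all genes were called as lower. In DMSO OPRK1 was lower too (-0.75, limma adjusted p = 0.0472), 1 of 10 where 0.0422% of all genes were called as lower. OPRK1 kept its sign across the sets for the difference, where CAMK2N1 changed it.

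**Figure D5:**
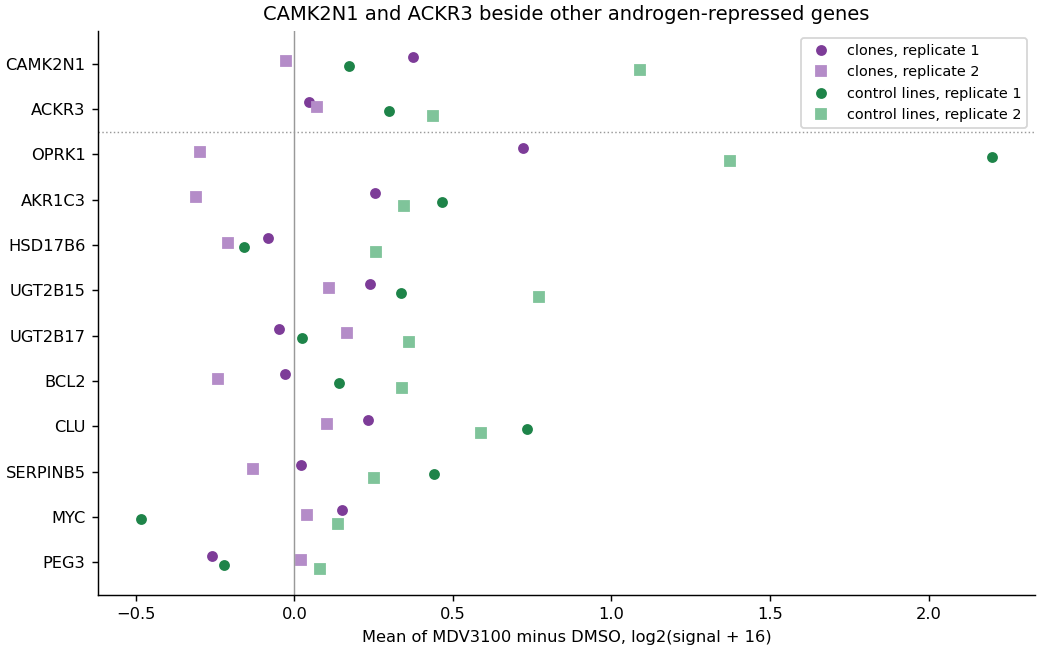
Mean response (horizontal axis, MDV3100 minus DMSO in log2(signal + 16)) of CAMK2N1 and ACKR3, above the dotted line, and of 10 other androgen-repressed genes, in 7 clones and 3 control lines within each replicate set. OPRK1 has the largest control responses in both sets, 2.20 and 1.37, and among the 12 genes drawn the control response of CAMK2N1 differs most between the sets, 0.17 in replicate 1 and 1.09 in replicate 2.

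The androgen-induced genes, a list chosen in the same way, ran the other way. Their median response was -0.15 in clones [-0.29, 0.04] and -0.53 in control lines [-0.65, -0.59], with 15 of 19 below 0 in clones and 17 of 19 in control lines. Between the sets, the clone median was thus below 0 in replicate 1 and not in replicate 2. TRPM8, a cation channel, fell in clones by 0.98 (limma adjusted p = 0.0144), 1 of 19 where 0.304% of all genes were called as lower. No gene of the list was called in control lines, where 13 of 19 had an unadjusted p under 0.05, as did 7.3% of all genes. The difference of responses was called as higher in clones for TMPRSS2 (0.85), FKBP5 (0.52) and PMEPA1 (0.93), with limma adjusted p of 0.0439, 0.0306 and 0.0306. These were 3 of 19, where 0.304% of all genes were called as higher. In MDV3100, FKBP5, SLC45A3, CENPN and NDRG1 were higher in clones by 0.58, 1.07, 0.51 and 0.63 (limma adjusted p = 0.0138, 0.0267, 0.0176 and 0.0294), 4 of 19 where 4.7% of all genes were called as higher.

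The partners of each member were looked up as well. Of the calcium/calmodulin kinase genes, 6 of 11 were measured, and 0 were called by limma in any of the 5 comparisons, with 1 or 2 at an unadjusted p under 0.05 in each. CAMK2D and CAMK2G, which encode subunits of the kinase that CAMK2N1 inhibits, had responses of -0.11 and 0.05 in clones and -0.25 and 0.11 in control lines. CAMKK2, a kinase gene that androgen induces, had -0.07 in clones and -0.47 in control lines. CAMK2N2, the related inhibitor, had -0.14 in clones and -0.19 in control lines, both below 0 where those of CAMK2N1 were above it, and neither passed the test. CAMKK1 had 0.12 in clones and 0.31 in control lines.

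Of the CXCL12 axis, 5 of 9 genes were measured and limma called 0 in any comparison, with at most 1 at an unadjusted p under 0.05. The ligands of ACKR3, CXCL12 and CXCL11, had mean signals of 1.80 and 3.06, below the filter. CXCR4, the signalling receptor for CXCL12, had a response of -0.12 in clones [-0.14, -0.10] and -0.39 in control lines [-0.02, -0.76]. ADM, which encodes adrenomedullin, another ligand of ACKR3, had 0.22 in clones and 0.31 in control lines. GRK2, a receptor kinase, had -0.02 in clones and -0.34 in control lines, and MIF, a cytokine that binds ACKR3, had 0.03 and -0.10.

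Among the CCN family and integrins, 8 of 12 genes were measured. Limma called no response or difference, with at most 1 at an unadjusted p under 0.05 in each. ITGA5, an integrin chain, was lower in clones in MDV3100 (-0.60 on the log2 scale, limma adjusted p = 0.0359), 1 of 8 where 4.26% of all genes were called as lower. It had responses of 0.06 in clones and 0.25 in control lines. The integrin chains ITGA6 and ITGAV and the receptor NOTCH1, which CCN3 binds, had responses of -0.23, -0.06 and 0.03 in clones and 0.17, 0.11 and 0.14 in control lines. CCN2, CCN4 and CCN5 were below the filter like CCN3, and CCN1 and CCN6 had mean signals of 61.3 and 33.9. All 8 differences were negative (median -0.16).

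For the HGF and MET pathway, 10 of 14 genes were measured and limma called 0 in any comparison, with 1 or 2 at an unadjusted p under 0.05 in each. HGF, the ligand of MET, had a mean signal of 4.85, below the filter, and so did its activator HGFAC at 4.51. GAB1, the adaptor that docks on MET, had a response of 0.19 in clones [0.22, 0.15] and 0.42 in control lines [0.65, 0.19]. SPINT1, an inhibitor of the proteases that activate HGF, had 0.12 in clones and 0.14 in control lines. MST1, the ligand of the related receptor, had 0.10 and 0.11.

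The genes whose response over the 20 pairs was most like that of CAMK2N1 were NDRG2 (Pearson r = 0.849), CEBPB (0.807) and ARHGEF10 (0.802). For ACKR3 they were SOBP (0.806), LHFPL2 (0.778) and FRMD3 (0.768). CAMK2N1 and ACKR3 themselves had r = 0.476 with each other, so the responses of the 2 members were only loosely alike. Over the 20 DMSO arrays, with the mean of each replicate set subtracted, the level of CAMK2N1 was most like those of CARS2 (r = 0.904), ATP6V0E2-AS1 (0.887) and UGT2B17 (0.873), an enzyme gene that androgen represses. The level of ACKR3 was most like those of DNAJC6 (0.832), MYO15B (0.823) and HTR2C (0.816), and CAMK2N1 and ACKR3 had r = -0.67. The points share lines, sets and arrays, and the 2 low CAMK2N1 cultures are among them, so these r are a description.

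The ratio of 3' to 5' actin signal, a sign of RNA quality, moved with some groups. In replicate 1 clones it was 4.37 ± 0.53 in MDV3100 and 4.06 ± 0.46 in DMSO (SD, n = 7), and in control lines 5.11 ± 1.28 and 3.79 ± 0.53 (SD, n = 3). Among replicate 2 arrays it was 3.02 ± 0.35 in MDV3100 and 3.14 ± 0.27 in DMSO in clones, and 3.57 ± 0.33 and 3.46 ± 0.22 in control lines. The actin ratio of control lines thus differed most between treatments in replicate 1, the set where their CAMK2N1 response on the brightest probe set was the smaller. Its part in the responses was not tested.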

How the data were processed

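Total RNA of the 40 LNCaP samples was amplified, biotin-labelled and hybridised to Affymetrix arrays, per the labels' protocols. Per the submitters' processing notes, MAS5 (version not given in the sources used here) was run by the authors, and the deposited intensity is its linear signal for each probe set. The 2% trimmed mean was 150 on every array, so no further normalization was applied. Array medians were 10.7 to 18.4. Precision is limited by how many arrays there are.

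Here, log2(signal + 16) was taken, which understates changes of dim genes. Probe sets with a mean of at least log2 4.815 (27338 of 54675) were kept. The given platform annotation paired 41097 probe sets with 1 gene, 1801 with several and 11777 with none. Only the first were named, and the brightest probe set stood for a gene. Groups came from the titles. Comparisons used limma 3.58.1 in R 4.3.3 with Benjamini-Hochberg adjustment over all tested genes, and adjusted p under 0.05 was a call. For control lines the fit used 12 single arrays and a block for line, with none for replicate number. Elsewhere the mean of a line's arrays entered as 1 replicate. The scripts were tested on simulated data. Replicate numbers pair the treatments of a line: the change from one replicate to the other was alike under both treatments (r = 0.593 to 0.903 over genes, 10 lines).

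Members and gene lists were chosen with earlier results of these data known. Named genes are the 4 members, list genes called in a comparison, otherwise up to 4 per list with the largest control response, and the 3 genes most like CAMK2N1 and ACKR3. A few further list genes that bind or relate to a member were named after their values were seen. Some list genes are not analysed here. Alternatives covered the pseudocount, filter, probe set choice, quantile normalization, an intensity trend, each replicate set, the pair block and left-out lines.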

Additional observations from a re-analysis of the deposited data

Results flagged for a closer look

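The CAMK2N1 signal of the replicate 2 array labelled control 2 in MDV3100 was 881.2, far below the other 5 control arrays in MDV3100, which ran from 3157.2 to 4352.4. Of 18 groups of 6 or 7 arrays examined, this was the one with a sample this far from the others, and chance gives about 1 in 20. The DMSO array of that culture was low too, at 365.7. Without this culture alone, an alternative chosen after seeing the data, the CAMK2N1 level in clones relative to control lines was -0.72 in MDV3100 (limma adjusted p = 0.0508) and -0.46 in DMSO (limma adjusted p = 0.257). The culture was picked by its low CAMK2N1, so these p are no independent test of that level.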

How the results depend on the processing

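Over CAMK2N1 and ACKR3, 169 of 192 alternative values kept their direction and their side of the threshold, 8 passed it where the main value had not, and 15 changed sign. Replicate set 1 alone gave 0.37 for CAMK2N1 in clones (limma adjusted p = 0.0236), 0.20 for its difference, -0.82 for its DMSO level, and 0.0051 and 0.26 for the ACKR3 level in MDV3100 and DMSO. Replicate set 2 alone gave -0.028 for CAMK2N1 in clones, 1.09 in control lines (limma adjusted p = 0.0191), and -0.63 for ACKR3 in MDV3100 (limma adjusted p = 0.0497). Differences of line means gave 0.63 and 0.37 in control lines for CAMK2N1 and ACKR3, both called. An intensity trend called the CAMK2N1 difference at -0.46 (limma adjusted p = 0.0480), where the main fit did not (limma adjusted p = 0.114). The trend fit called more genes for the difference than the main fit, as counted in the next paragraph. The mean of all probe sets put CAMK2N1 in DMSO at -0.30. Without the 2 low cultures, an alternative chosen after seeing the data, CAMK2N1 was at -0.59 in MDV3100 and -0.33 in DMSO, and ACKR3 at 0.039 in DMSO. With control 2 of replicate 2 alone left out, DMSO levels were -0.46 for CAMK2N1 and 0.073 for ACKR3. Leaving out each line in turn gave, for CAMK2N1 and ACKR3, responses of 0.13 to 0.22 and 0.03 to 0.10 in clones and 0.55 to 0.71 and 0.33 to 0.43 in control lines, differences of -0.54 to -0.38 and -0.37 to -0.26, MDV3100 levels of -0.69 to -0.20 and -0.36 to -0.28, and DMSO levels of -0.23 to 0.34 and -0.046 to 0.044. Without control 2, CAMK2N1 in DMSO was at -0.23 and ACKR3 at 0.019, and without clone 10, clone 14 or clone 19 ACKR3 was at 0.044, 0.022 or 0.034. Without a filter, MET in clones was at -0.069 with a pseudocount of 1 and -0.14 in set 2, and its DMSO level at 0.091 in set 1. The cause was not tested.

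The counts of genes called moved more. For the response of control lines (12 genes) they were 140 in set 1, 306 with the replicate block, 718 with line means, 47 without the 2 low cultures, or without control 2 of replicate 2 alone, and 0 to 18 with a line left out. For the response of clones (60 genes) they were 23 and 155 with pseudocounts of 1 and 64, 20 without a filter, 97 with the mean of probe sets, 30 with quantile normalization, 174 with a trend, 224 in set 1, 0 in set 2, 162 with the replicate block, 0 on single arrays with line as a block and 6 to 239 with a line left out. For the difference (85 genes) they were 11 with a pseudocount of 1, 26 without a filter, 157 with a trend, 1 in set 1, 0 in set 2, 20 with the replicate block, 182 without control 2 of replicate 2 and 0 to 109 with a line left out. For the level in MDV3100 (1062 genes) they were 2326 in set 2, 441 with the replicate block and 8 to 2201 with a line left out. For the level in DMSO (14 genes) they were 7 and 82 with pseudocounts of 1 and 64, 166 with the mean of probe sets, 35 with quantile normalization, 75 with a trend, 725 and 1221 in sets 1 and 2, 213 with the replicate block, 1040 without the 2 low cultures, 208 without control 2 of replicate 2 and 0 to 2126 with a line left out. In set 2, limma called 0 genes for the response of clones and for the difference, with 1216 and 1306 at an unadjusted p under 0.05. The replicate block changed no call of a member.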
